A study of Mus musculus with 14 samples.

Results

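Antibodies and T cell receptors are built from gene segments. In each developing B or T cell 1 variable (V) segment is cut next to a joining (J) segment, with a diversity segment between them in heavy and beta chains, and the joined exon is then spliced to a constant region. V segments sit in arrays upstream of the J segments, Ighv for the antibody heavy chain, Igkv and Iglv for the kappa and lambda light chains, and Trav and Trbv for the alpha and beta chains of the T cell receptor. Because daughters of 1 lymphocyte carry the same joined segment, the spread of reads over V segments is widely used as a coarse view of how many lymphocyte families a tissue holds. A gene count per segment sees neither the joint nor mutations, and 1 plasma cell holds far more antibody RNA than 1 resting B cell.

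The segments described here are the mouse genes whose symbols begin with Ighv, Igkv, Iglv, Trav or Trbv and whose raw counts summed to 20 or more over 14 liver libraries. The rule kept 145 of 511 annotated segments, out of 51912 genes in the files. It chose on measured counts, and 94.4% of the counts of the 145 lay in the hepatitis group, so that a higher level there is partly built into the choice. Of the 145, only 25 reached 20 counts in the other libraries alone. Ighv gave 60 of 185 annotated segments, Igkv 73 of 160, Iglv 3 of 3, Trbv 9 of 35 and Trav 0 of 128. None of the 163 annotated pseudogenes was kept, and the highest pseudogene count was 17.

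Total RNA from the left liver lobe of untreated mice aged 20 weeks was sequenced, with 1 library per sample. All mice carried floxed alleles of Tet2 (Tet2fl/fl), an enzyme that oxidises methylated cytosine in DNA. The 5 AIH libraries came from Tet2fl/fl vav cre+ mice with spontaneous autoimmune hepatitis, the 5 asymptomatic libraries from Tet2fl/fl vav cre+ mice without it, and the 4 control libraries from healthy Tet2fl/fl cre- littermates. The vav promoter is active in blood cells, lymphocytes included, so B and T cells of cre+ mice are themselves a target of the deletion, and hepatocytes are not. Replicate numbers follow deposit order and pair no samples.

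Gene totals ran from 17347056 to 18156913 counts in AIH, from 15968380 to 18031810 in asymptomatic and from 17691897 to 18915729 in control libraries. Not uniquely aligned reads were 28.9% to 33.5% of reads in AIH, 31.2% to 37.0% in asymptomatic and 28.8% to 31.1% in control libraries. Albumin and the other hepatocyte genes were abundant in all of them. Tet2 had 135 to 305 counts in AIH, 76 to 157 in asymptomatic and 146 to 212 in control libraries, and a whole-gene count in whole liver does not check a deletion limited to blood cells. Xist and Y-linked genes read 4 AIH libraries as female and 1 as male, all 5 asymptomatic libraries as male, and 2 control libraries as each sex, so that sex and group were entangled. Asymptomatic 2 stood apart from the other 4 asymptomatic libraries in antibody genes. The summed V level and the count of segments called are given with and without it, and tests of single segments only with it.

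The segments that carried the most reads come partly in pairs of close relatives, and the pairs show what a read must resolve to be counted for 1 of them. The main V exons of 9 of them, or the last 300 bases where an exon is longer, follow 5′ to 3′ on the coding strand, from the GENCODE annotation of GRCm38. Capitals in the first 6 mark bases that differ from the partner, and capitals in the last 3 mark the last in-frame cysteine codon, which stands just before the part of the antigen binding site that the joint completes. Igkv12-46 (chr6:69764523-69764820, minus strand) led the kappa reads of AIH 2 and AIH 3, and Igkv12-44 (chr6:69814631-69814928, minus strand) led those of AIH 1.
Igkv12-46: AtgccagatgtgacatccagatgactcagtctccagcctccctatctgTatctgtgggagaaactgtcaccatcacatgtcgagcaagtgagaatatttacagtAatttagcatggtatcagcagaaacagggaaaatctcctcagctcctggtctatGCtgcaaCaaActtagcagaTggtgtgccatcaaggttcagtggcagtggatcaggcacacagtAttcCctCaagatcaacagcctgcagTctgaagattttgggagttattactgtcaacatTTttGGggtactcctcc
Igkv12-44: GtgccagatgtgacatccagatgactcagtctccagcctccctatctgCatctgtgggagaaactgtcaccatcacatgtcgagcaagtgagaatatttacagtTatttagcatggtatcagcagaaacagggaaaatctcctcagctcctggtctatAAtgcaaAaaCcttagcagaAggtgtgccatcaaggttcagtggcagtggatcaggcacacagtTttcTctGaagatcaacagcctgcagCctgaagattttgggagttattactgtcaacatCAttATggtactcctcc
These 2 exons differ at 16 of 298 aligned bases and share runs of up to 55 bases. Ighv6-6 (chr12:114434788-114435087, minus strand) was among the 3 leading heavy segments of AIH 1, AIH 2 and AIH 3, and Ighv6-3 (chr12:114391712-114392011, minus strand) led AIH 3 and asymptomatic 2.
Ighv6-6: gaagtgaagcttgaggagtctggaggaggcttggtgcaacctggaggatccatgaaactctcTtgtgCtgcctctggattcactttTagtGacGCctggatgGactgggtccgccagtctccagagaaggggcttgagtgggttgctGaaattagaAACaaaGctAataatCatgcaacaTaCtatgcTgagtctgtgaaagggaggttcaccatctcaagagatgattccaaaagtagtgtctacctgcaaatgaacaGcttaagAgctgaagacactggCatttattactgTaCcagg
Ighv6-3: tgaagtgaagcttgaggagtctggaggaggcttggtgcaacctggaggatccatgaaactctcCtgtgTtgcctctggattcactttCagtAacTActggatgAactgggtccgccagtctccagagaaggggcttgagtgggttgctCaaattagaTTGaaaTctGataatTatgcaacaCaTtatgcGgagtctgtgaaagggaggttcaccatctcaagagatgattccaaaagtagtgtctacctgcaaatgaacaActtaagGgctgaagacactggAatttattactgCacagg
Over the whole exons they differ at 22 of 310 aligned bases, with 1 base of Ighv6-6 unaligned. Igkv3-2 (chr6:70698768-70699067, plus strand) led AIH 4 and asymptomatic 2, and Igkv3-5 (chr6:70663596-70663895, plus strand) is of the same family.
Igkv3-2: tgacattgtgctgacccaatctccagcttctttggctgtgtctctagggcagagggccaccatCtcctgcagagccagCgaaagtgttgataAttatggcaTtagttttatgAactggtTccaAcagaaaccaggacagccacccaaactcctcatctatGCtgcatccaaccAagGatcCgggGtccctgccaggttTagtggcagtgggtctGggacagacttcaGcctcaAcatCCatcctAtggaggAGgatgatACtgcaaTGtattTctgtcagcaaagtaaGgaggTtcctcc
Igkv3-5: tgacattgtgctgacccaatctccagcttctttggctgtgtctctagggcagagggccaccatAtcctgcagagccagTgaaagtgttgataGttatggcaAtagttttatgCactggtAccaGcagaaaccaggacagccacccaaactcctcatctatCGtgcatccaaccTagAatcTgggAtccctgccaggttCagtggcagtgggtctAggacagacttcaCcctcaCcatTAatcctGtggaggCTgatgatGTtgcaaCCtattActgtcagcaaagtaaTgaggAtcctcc
This pair differs at 29 of 310 bases over the whole exons. Trbv16 (chr6:41151933-41152230, plus strand) took most beta chain reads of AIH 1. Igkv4-55 (chr6:69607275-69607574, minus strand) and Ighv7-3 (chr12:114153180-114153479, minus strand) led the kappa and heavy reads of AIH 5.
Trbv16: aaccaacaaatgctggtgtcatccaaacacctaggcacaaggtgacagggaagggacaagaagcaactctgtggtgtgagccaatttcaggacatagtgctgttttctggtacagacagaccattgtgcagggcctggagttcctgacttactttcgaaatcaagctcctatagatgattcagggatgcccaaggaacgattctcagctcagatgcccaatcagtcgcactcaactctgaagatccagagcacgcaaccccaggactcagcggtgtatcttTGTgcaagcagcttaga
Igkv4-55: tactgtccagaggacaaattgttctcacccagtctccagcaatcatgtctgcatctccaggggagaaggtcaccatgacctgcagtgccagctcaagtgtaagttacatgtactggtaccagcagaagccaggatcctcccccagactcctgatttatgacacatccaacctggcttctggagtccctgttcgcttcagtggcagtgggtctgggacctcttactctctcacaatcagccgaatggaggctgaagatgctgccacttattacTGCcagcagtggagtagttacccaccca
Ighv7-3: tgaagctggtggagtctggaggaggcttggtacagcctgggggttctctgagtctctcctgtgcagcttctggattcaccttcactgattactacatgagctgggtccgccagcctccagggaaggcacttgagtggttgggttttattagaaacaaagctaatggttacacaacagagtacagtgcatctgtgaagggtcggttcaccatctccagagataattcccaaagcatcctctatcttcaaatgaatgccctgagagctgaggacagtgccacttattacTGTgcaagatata
Of the 50-base windows in the annotated transcript, the share found in no other GENCODE transcript was 90.2% for Igkv12-46, 69.3% for Igkv12-44, 80.8% for Ighv6-6, 86.0% for Ighv6-3, 78.7% for Igkv3-2, 48.6% for Igkv3-5, 100% for Trbv16, 46.7% for Igkv4-55 and 93.3% for Ighv7-3. The median over the 145 segments was 77.6%. Reads without a unique alignment stand in a row of their own in the files and in no gene, so levels of segments with a low share, such as Igkv6-20 at 35.9%, are uncertain.

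By group mean, V segment RNA was far more abundant in AIH livers than in either other group, in all 4 chains that gave members. The summed level of the 145 segments, in TMM-scaled counts per 1e6 counts (CPM), was 374.6, 78.1, 323, 1064 and 38.0 in AIH 1 to 5. It was 4.03, 65.6, 6.33, 2.91 and 3.86 CPM in asymptomatic 1 to 5, and 6.54, 7.40, 10.9 and 13.3 CPM in control 1 to 4. Every AIH library was above every control library, while AIH 5 was below asymptomatic 2. Group means were 375.5 ± 412 in AIH (SD, n = 5), 16.5 ± 27.4 in asymptomatic (n = 5) and 9.56 ± 3.16 CPM in control livers (n = 4). The fold of means was 39.3 for AIH over control and 22.7 for AIH over asymptomatic, which was 87.7 without asymptomatic 2. The SD of the AIH group exceeded its mean, so single libraries are given below wherever a segment is described. In bulk tissue more lymphocytes and more receptor RNA per lymphocyte cannot be told apart.

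**Figure D1:**
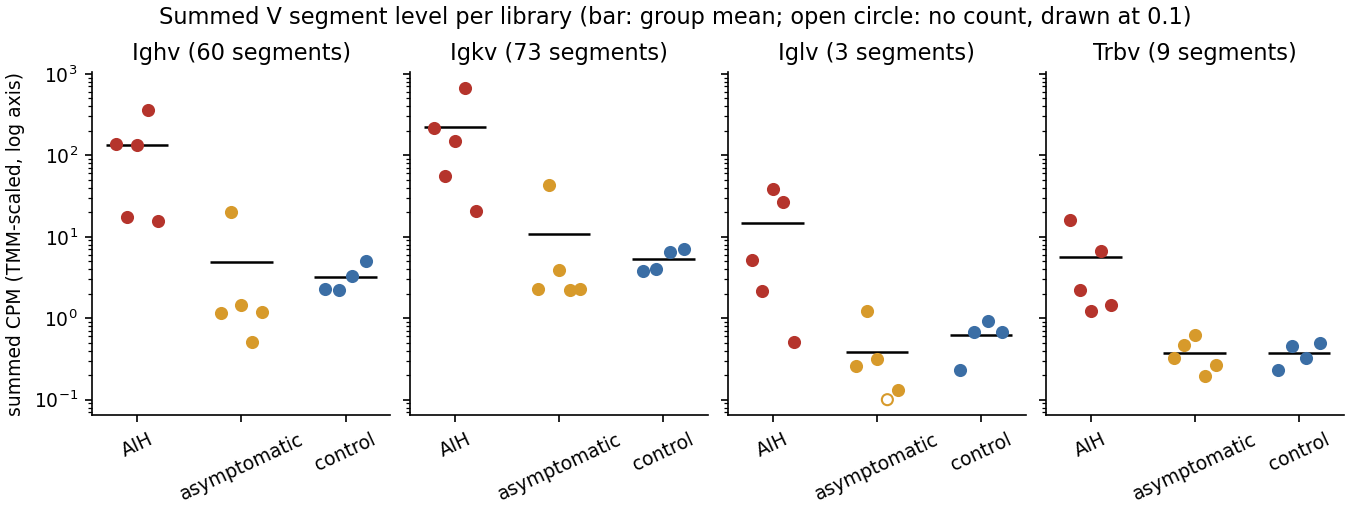
Summed CPM (TMM-scaled, log axis) of the V segments of each locus, 1 point per library, with AIH, asymptomatic and control from left to right and a bar at the group mean. AIH points lie above all control points in Ighv, Igkv and Trbv and reach down into the control range in Iglv, and asymptomatic 2 is the single high asymptomatic point in Ighv, Igkv and Iglv.

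Heavy chain segments summed to 136.4, 17.4, 135.0, 357.5 and 15.5 CPM in AIH 1 to 5, against 2.28, 2.20, 3.27 and 5.02 CPM in control 1 to 4. Kappa segments summed to 216.9, 56.4, 147.9, 673.0 and 20.5 CPM in AIH 1 to 5, against 3.80, 4.07, 6.42 and 7.14 CPM in controls. Beta chain segments summed to 16.2, 2.23, 1.22, 6.70 and 1.46 CPM in AIH 1 to 5, against 0.234, 0.452, 0.327 and 0.502 CPM in controls. The lowest AIH library was above the highest control library in each of these 3 loci. Lambda segments summed to 5.18, 2.14, 38.7, 26.8 and 0.504 CPM in AIH 1 to 5, against 0.234 to 0.925 CPM in controls. AIH 5 thus lay within the control range in lambda, and below asymptomatic 2 at 1.23 CPM. In the asymptomatic livers other than asymptomatic 2, heavy sums ran from 0.517 to 1.44 CPM and kappa sums from 2.20 to 3.95 CPM, and all 4 were below every control in heavy chain.

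Tests per segment were limited by low counts and by counts that lay in few libraries. Ighv14-4, for example, had the highest summed level in heavy chain but did not pass the filter. Of the 145 segments, 24 passed the count filter of edgeR, and since they passed through the high libraries their count is a description. In edgeR's quasi-likelihood test with Benjamini-Hochberg adjustment over 14638 genes, 18 of the 24 were higher in AIH than in control livers at an adjusted p of 0.05 and 0 were lower, beside 21.7% of all tested genes called and 15.6% called higher. AIH against asymptomatic also gave 18 higher and 0 lower, beside 29.8% of all genes called and 19.1% called higher. Both comparisons share the AIH libraries. Without asymptomatic 2 the second gave 16 of 16 that passed the filter, beside 31.9% of all genes called and 19.9% called higher. The median log2 fold change of the 24 was 5.48 over control and 4.64 over asymptomatic, beside -0.01 and -0.03 over all tested genes. When every gene with a summed count of 20 or more was tested, 71 of 145 segments were higher in AIH than in control livers, beside 13.8% of 18075 genes called higher and 18.8% called in either direction. Against asymptomatic livers 85 were higher, beside 17.5% of genes higher and 26.7% in either direction. These counts and the medians above are descriptions too. The rule that chose the segments drew mostly on AIH counts, so a rise in AIH is partly built in and all genes are no like set. Without AIH 4 only 6 of 10 segments that still passed the filter were called over control, beside 23.6% of all genes called and 15.8% called higher. Without AIH 1 it was 7 of 10, beside 18.4% called and 13.8% called higher. Without AIH 3 it was 8 of 11, beside 17.2% called and 13.2% called higher.

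The AIH count of a segment often lay mostly in 1 liver. In 123 of 145 segments a single AIH library held over 50% of the AIH count, and the median share of that library was 75.2%. These counts are a description, since AIH 4 alone held 19048 V counts, more than the other AIH libraries together. AIH 4 was that highest library for 103 segments, AIH 3 for 21, AIH 1 for 17, AIH 5 for 3 and AIH 2 for 1. The AIH and control ranges did not overlap for 13 of 145 segments, beside 13.2% of all tested genes. The 2 shares are over unlike sets, since the tested genes passed the count filter and most of the segments did not. For AIH over asymptomatic it was 8 of 145, beside 12.3%.

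**Figure D2:**
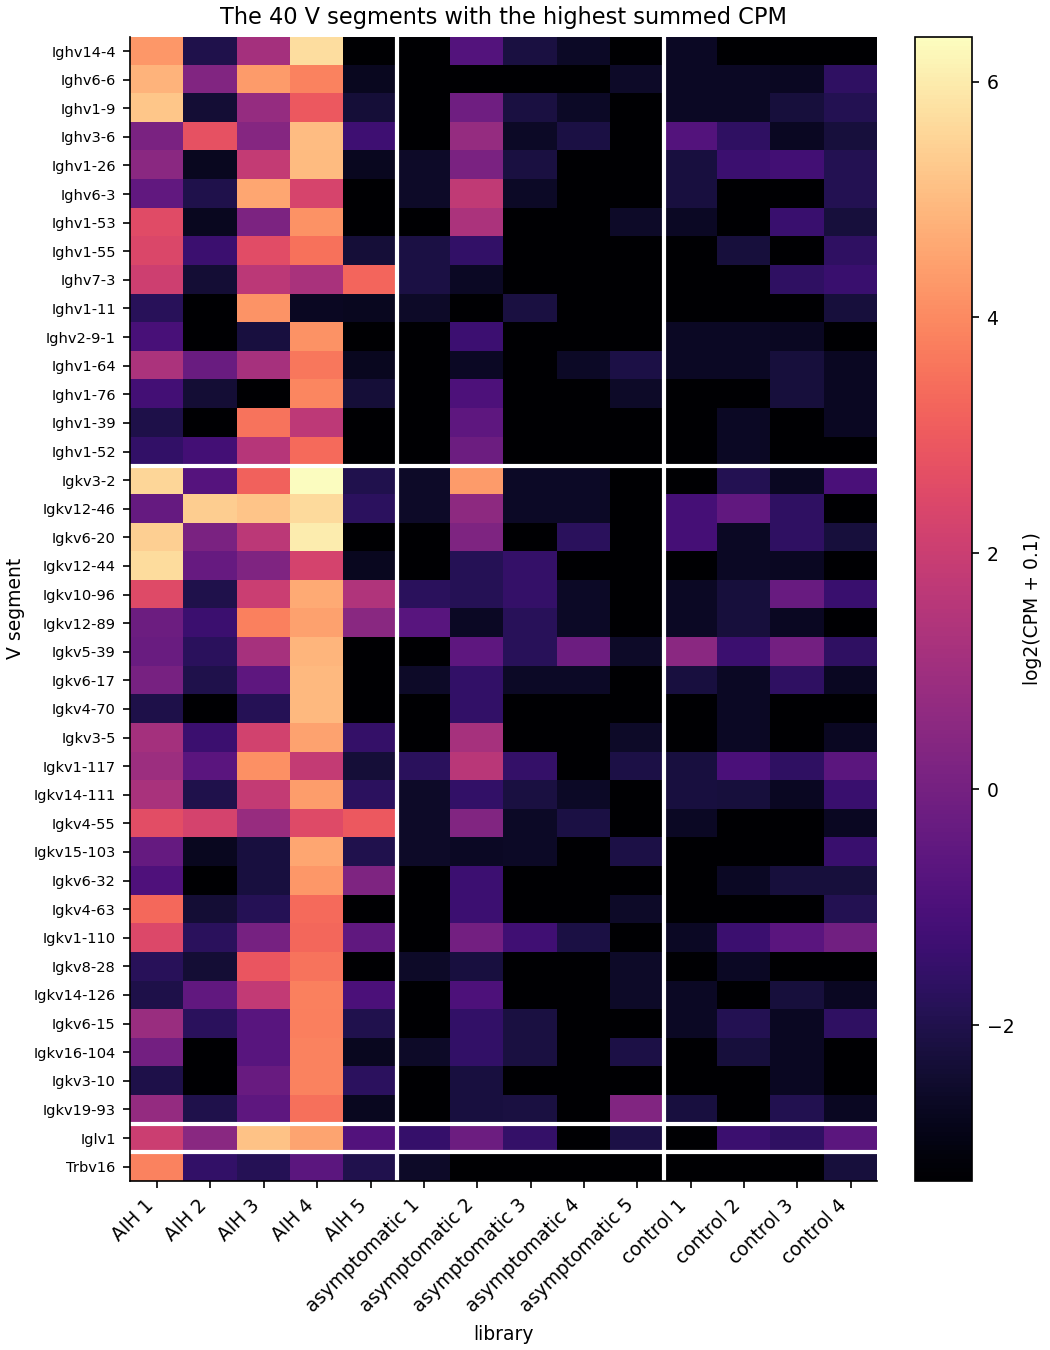
Level of the 40 V segments with the highest CPM summed over the 14 libraries, as log2(CPM + 0.1), with libraries in columns (AIH, asymptomatic, control, separated by white lines) and segments in rows grouped by locus. AIH 4 is bright in most rows, AIH 2 and AIH 5 are bright in few rows each, and asymptomatic 2 is the brightest column outside AIH.

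Among heavy chain segments Ighv14-4 had the highest summed level. Its level was 19.4, 0.146, 2.09, 52.1 and 0 CPM in AIH 1 to 5, at most 0.470 CPM in asymptomatic livers and a single count, in control 1, among controls. The ratio of pooled AIH to pooled control level was 1016, with a 95% counting interval of 182 to 40158 that reflects that 1 count, and the gene did not pass the filter for a test. Intervals and floors given here cover counting error only. AIH 1 and AIH 4 carried nearly all of its reads.

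Ighv6-6 was at 29.0, 1.116, 20.6, 14.3 and 0.0504 CPM in AIH 1 to 5, at 1 count in all asymptomatic livers together, and between 0.0544 and 0.223 CPM in controls. It rose by 6.95 ± 1.34 (log2 fold change ± SE) over control (edgeR, adjusted p = 0.00209) and by 9.36 ± 1.53 over asymptomatic (adjusted p = 0.000451). All AIH libraries but AIH 5 were above all controls, and AIH 5 had 1 count, as did the lowest controls. Ighv6-3, its close relative, was at 0.623, 0.146, 23.9, 4.80 and 0 CPM in AIH 1 to 5, and at 3.29 CPM in asymptomatic 2. It rose over control by 6.24 ± 2.097 (edgeR, adjusted p = 0.0458), with most of the level in AIH 3, and its difference from asymptomatic livers did not pass (3.05 ± 1.47, adjusted p = 0.132).

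Ighv1-9 was at 37.7 CPM in AIH 1, 7.60 in AIH 4, 1.63 in AIH 3 and 0.101 or less in AIH 2 and AIH 5, against at most 0.167 CPM in controls. Its log2 fold change over control was 6.49 ± 1.73 (edgeR, adjusted p = 0.0153). Ighv3-6 led the heavy reads of AIH 2 at 6.70 CPM and was at 32.4 CPM in AIH 4, with 0.303 to 1.22 in the other 3 AIH libraries and 0.0544 to 0.467 in controls. It passed over control (5.24 ± 1.52, edgeR, adjusted p = 0.0232) although AIH 5 lay within the control range. Ighv1-26 was at 31.7 CPM in AIH 4 and at 0.0485 to 3.49 in the other AIH libraries, against 0.117 to 0.327 CPM in controls (4.98 ± 1.62, edgeR, adjusted p = 0.0398). Each of these 3 was high in 1 or 2 livers.

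Further heavy chain segments with low p-values had lower levels. Ighv7-3 was at 9.53 CPM in AIH 5 and above all controls in 4 AIH libraries, and rose by 4.85 ± 1.07 over control (edgeR, adjusted p = 0.00505) and by 6.41 ± 1.15 over asymptomatic (adjusted p = 0.000934). Ighv5-17 was at 2.45, 0.0485, 0.815, 1.285 and 3.03 CPM in AIH 1 to 5, with 2 counts in controls, both in control 4, and 1 in asymptomatic livers. It rose by 5.45 ± 1.10 over control (edgeR, adjusted p = 0.00292). Ighv1-64 was at 2.35, 0.728, 2.15, 12.3 and 0.0504 CPM in AIH 1 to 5, against 0.0558 to 0.109 CPM in controls (5.51 ± 1.21, edgeR, adjusted p = 0.00497). Among the 10 tested heavy segments 8 were called over control, and Ighv1-53 and Ighv1-81 did not pass.

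Among kappa segments Igkv3-2 had the highest summed level of all 145. It was at 47.3, 0.485, 8.90, 83.2 and 0.151 CPM in AIH 1 to 5, at 20.3 CPM in asymptomatic 2 and at most 0.0650 in the other asymptomatic livers, and at 0, 0.169, 0.0544 and 0.391 CPM in control 1 to 4. It rose over control by 7.44 ± 2.35 (edgeR, adjusted p = 0.0348), and over asymptomatic livers the difference did not pass (2.76 ± 1.54, adjusted p = 0.192). AIH 5 lay inside the control range. Igkv3-5 was at 22.5 CPM in AIH 4, 2.17 CPM in asymptomatic 2 and 2 counts over all controls, and all 5 AIH libraries were above the controls (7.39 ± 1.997, edgeR, adjusted p = 0.0164).

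Igkv12-46 was at 0.671, 41.1, 36.4, 49.4 and 0.202 CPM in AIH 1 to 5, at most 1.41 CPM in asymptomatic livers, and at 0.350, 0.621, 0.218 and 0 CPM in control 1 to 4. It was high in 3 livers and at or near the control range in AIH 1 and AIH 5, and rose by 6.399 ± 1.53 over control (edgeR, adjusted p = 0.00817). Igkv12-44 was instead highest in AIH 1, at 51.1, 0.679, 1.11, 4.75 and 0.0504 CPM in AIH 1 to 5, with 2 counts in controls. The pooled ratio over control was 437, with a counting interval of 121 to 3614, and edgeR gave an adjusted p of 0.00758. A further tested member of the Igkv12 family, Igkv12-89, was at 0.767, 0.291, 13.96, 21.8 and 1.31 CPM in AIH 1 to 5, above the control range of 0 to 0.113 in all 5 (6.91 ± 1.47, edgeR, adjusted p = 0.00396).

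Igkv6-20 was at 42.2, 1.02, 3.08, 65.0 and 0 CPM in AIH 1 to 5, against 0.0565 to 0.350 CPM in controls (6.87 ± 1.74, edgeR, adjusted p = 0.0113). Igkv10-96 was at 5.75, 0.146, 3.96, 25.2 and 2.52 CPM in AIH 1 to 5, against 0.0584 to 0.708 CPM in controls (4.65 ± 1.11, edgeR, adjusted p = 0.00799). Igkv4-55 was the most even of the named segments, at 6.14, 4.66, 1.69, 5.75 and 7.57 CPM in AIH 1 to 5. It had 1.117 CPM in asymptomatic 2, at most 0.129 in the other asymptomatic livers and 2 counts in controls, and its AIH range overlapped neither group. It gave the lowest p of the 24, with a rise of 7.197 ± 1.09 over control (edgeR, adjusted p = 0.000364) and of 4.16 ± 0.76 over asymptomatic livers (adjusted p = 0.00102). Among the 13 tested kappa segments 9 were called over control, and Igkv5-39, Igkv1-117, Igkv1-110 and Igkv3-4 did not pass.

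By family, Ighv1 held 34 members and 6272 summed counts, from 93 annotated segments of which 39 are pseudogenes. Igkv12 held 4515 summed counts in 5 members, Igkv3 4388 in 9, Igkv6 3873 in 8 of 9 annotated segments and Igkv4 2772 in 19. Ighv1 took 49.5%, 37.2%, 44.7%, 51.0% and 11.7% of heavy counts in AIH 1 to 5, against 38.5%, 66.7%, 60.0% and 56.7% in control 1 to 4. Igkv12 took 25.4%, 74.8%, 34.8%, 12.4% and 7.86% of kappa counts in AIH 1 to 5, against 10.8%, 19.4%, 6.78% and 2.34% in controls.

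Lambda light chains come from 3 segments in this mouse annotation, and Iglv1 held 1182 of their 1383 counts. Iglv1 was at 3.98, 1.31, 35.5, 22.9 and 0.454 CPM in AIH 1 to 5, at most 0.764 CPM in asymptomatic livers, and at 0, 0.282, 0.218 and 0.558 CPM in control 1 to 4. It rose by 5.55 ± 1.27 over control (edgeR, adjusted p = 0.00635). Iglv2 was at 0.431, 0.631, 2.91, 0.894 and 0.0504 CPM in AIH 1 to 5, at most 0.176 CPM in asymptomatic and at most 0.339 CPM in control livers, and did not reach the filter. A gene on the opposite strand, 2010309G21Rik, overlaps Iglv1, and without a stated strand setting reads of the 2 cannot be told apart. Lambda took 11.98% of V counts in AIH 3 (95% Clopper-Pearson interval 11.1% to 12.9%) and 1.33% to 2.73% in the other AIH libraries. Its share was 3.57% to 9.16% in controls, on 4 to 17 lambda counts, so all AIH livers but AIH 3 were below every control. In asymptomatic livers it was 0% to 6.45%, also on few counts. The lambda constant genes moved with it, at 18.2% of light chain constant counts in AIH 3 and 3.99% to 5.77% in the other AIH libraries, against 7.83% to 13.3% in controls.

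T cell receptor beta segments were sparse, and none of the 9 passed the filter. Trbv16 was at 14.3, 0.243, 0.175, 0.559 and 0.151 CPM in AIH 1 to 5, with 1 count in asymptomatic livers and 2 in controls, and its pooled ratio over control was 118 (counting interval 32.3 to 976). All AIH libraries were above all others, and 1 of them stood far above the rest. In AIH 1 it held 298 of 338 beta counts, or 88.2% (84.2% to 91.4%). Of the AIH 1 counts in the 2 beta constant genes 68.2% were Trbc1 (367 against 171 for Trbc2), while the other AIH libraries had 23.1% to 40.7%. The share was 0% to 56.0% in asymptomatic livers, on 6 to 25 counts, and 18.5% to 65.0% in controls, on 9 to 27 counts. Of the 19 AIH 1 counts in beta J segments 9 were Trbj1-4, a J segment of the Trbc1 cluster.

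The other beta segments had no such leader. Trbv3 was at 0.336, 0.728, 0.116, 1.17 and 0.101 CPM in AIH 1 to 5 and had no count in the other 9 libraries, which puts AIH at least 11.6-fold higher than controls when the floor is 3 counts over the group. Trbv13-2 was at 0.671, 0.243, 0.0582, 0.838 and 0.353 CPM in AIH 1 to 5, against 0.0558 to 0.169 CPM in controls, with overlapping ranges. Trbv12-2 led AIH 3 with 7 of 21 counts, a share of 33.3% whose interval runs from 14.6% to 57.0%. Leaders of AIH 2, AIH 3, AIH 4 and AIH 5 within Trbv rest on 7 to 21 counts, and in AIH 4 Trbv14 replaced Trbv3 when counts were divided by transcript length. In the other loci and libraries dividing by length kept the leader, in 19 of 20 cases in all.

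More different segments were counted in most AIH livers, but fewer at an equal number of V reads. Segments with at least 1 count numbered 134, 86, 124, 145 and 80 in AIH 1 to 5. They numbered 38, 108, 57, 23 and 30 in asymptomatic 1 to 5, and 50, 58, 76 and 83 in control 1 to 4. AIH 5 had fewer than control 4, and the ratio of means was 1.70 for AIH over control and 2.22 for AIH over asymptomatic. V counts themselves were 7814, 1609, 5549, 19048 and 754 in AIH 1 to 5, 62, 1116, 101, 45 and 58 in asymptomatic 1 to 5, and 112, 131, 201 and 239 in control 1 to 4. Segments without a count in a control library are therefore not detected at this depth rather than absent.

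At an equal number of 40 V counts per library the order turned round. The expected number of different segments was 18.7, 13.6, 22.0, 27.5 and 16.4 in AIH 1 to 5. It was 27.7, 22.0, 31.0, 21.5 and 22.9 in asymptomatic 1 to 5, and 25.1, 28.1, 28.6 and 30.5 in control 1 to 4. The ratio of means became 0.700 for AIH over control and 0.786 for AIH over asymptomatic. All AIH livers but AIH 4 were below all controls, and AIH 4, with the most V counts, lay within the control range.

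**Figure D3:**
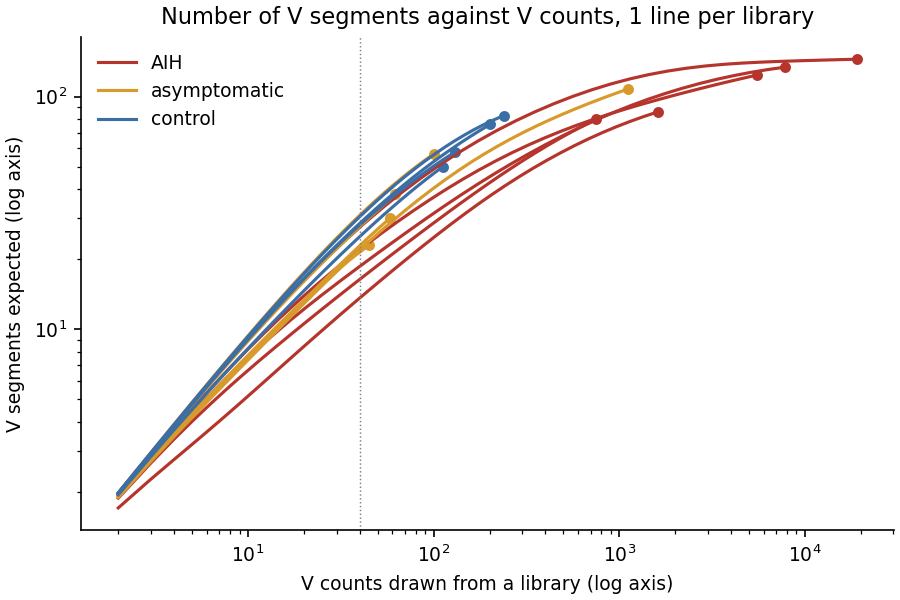
Expected number of different V segments (log axis) against the number of V counts drawn from a library (log axis), 1 line per library, with a point at its full count and a dotted line at 40 counts. At 40 counts 4 AIH lines lie under all control lines, while at full count the points of AIH 1, AIH 3 and AIH 4 lie highest and farthest to the right.

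Evenness differed in the same direction, though the groups overlapped. The effective number of segments is the number of equally frequent segments that would give the same chance of drawing 1 segment in 2 draws (inverse Simpson, unbiased). It was 14.1, 3.43, 20.6, 39.4 and 8.38 in AIH 1 to 5. It was 35.0, 9.28, 70.1, 12.5 and 10.7 in asymptomatic 1 to 5, and 18.2, 44.1, 43.8 and 61.7 in control 1 to 4. The ratio of means was 0.409 for AIH over control and 0.624 for AIH over asymptomatic, with overlapping ranges in both. The second was 0.535 without asymptomatic 2, and turned to 1.02 without asymptomatic 3 and to 1.09 with the Shannon number. Libraries with 45 to 62 V counts give an imprecise number. In control 1, the lowest control, Igkv5-39 held 23 of 112 counts. Within Trbv alone the order of the means was the other way, on few beta counts outside AIH. The effective number averaged 6.04 in AIH (1.28 to 8.80), 4.89 in 4 asymptomatic livers and 3.4 in control livers (2.0 to 5.6). Only AIH 1, at 1.28, was below all controls there.

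In the 2 AIH livers with the lowest effective number a single segment held a large share. Igkv12-46 held 52.6% of all V counts in AIH 2 (95% interval 50.2% to 55.1%) and Ighv7-3 held 25.1% in AIH 5 (22.0% to 28.3%). The leader held 13.6% in AIH 1 (Igkv12-44), 11.3% in AIH 3 (Igkv12-46) and 7.82% in AIH 4 (Igkv3-2). In asymptomatic 2 Igkv3-2 held 31.0% (28.3% to 33.8%), and in the other asymptomatic livers the leader held 4.95% to 29.3% on 5 to 17 counts. In control 1 to 4 the leader held 20.5%, 8.40%, 7.96% and 6.28%. The first 50% of the V counts lay in 5, 1, 7, 15 and 3 segments in AIH 1 to 5, in 9, 6, 17, 6 and 5 in asymptomatic 1 to 5, and in 8, 13, 15 and 20 in control 1 to 4. The asymptomatic numbers overlap those of both other groups. Without its leading segment AIH 2 had an effective number of 15.1, still below the 44.5 to 70.2 of the controls treated the same way.

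**Figure D4:**
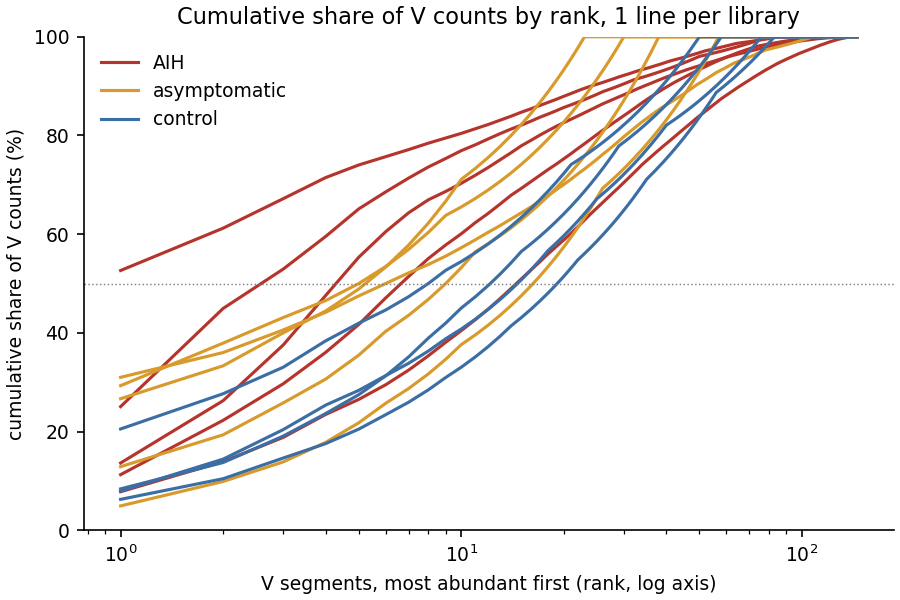
Cumulative share of V counts (%) against segment rank (log axis), 1 line per library, with a dotted line at 50%. The AIH 2 line starts at 52.6% with its first segment, and the AIH 4 line runs among the control lines.

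Within a locus the leaders were larger still. Among heavy segments Ighv1-9 held 27.6% in AIH 1, Ighv3-6 38.5% in AIH 2, Ighv6-3 17.7% in AIH 3, Ighv14-4 14.6% in AIH 4 and Ighv7-3 61.4% in AIH 5 (interval 55.7% to 66.8%). Among kappa segments Igkv12-44 held 23.6% in AIH 1, Igkv12-46 73.0% in AIH 2 and 24.6% in AIH 3, Igkv3-2 12.4% in AIH 4 and Igkv4-55 36.9% in AIH 5. No heavy segment led in more than 1 AIH liver, and Igkv12-46 alone led the kappa reads in 2. Some livers had another prominent segment, such as Ighv1-69 with 19.3% of the heavy counts of AIH 2 and Ighv5-17 with 19.5% of those of AIH 5.

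Kappa segments took the largest share of V counts in AIH and control livers. They held 57.9%, 72.2%, 45.8%, 63.3% and 54.0% of V counts in AIH 1 to 5, against 58.0%, 55.0%, 58.7% and 53.6% in control 1 to 4. Heavy chain averaged 35.0% in AIH, 26.3% in asymptomatic and 33.0% in control livers. Beta chain averaged 2.41% in AIH, 6.45% in asymptomatic and 4.11% in control livers. Its shares ran from 0.378% to 4.33% in AIH, 0.717% to 9.90% in asymptomatic and 2.99% to 6.11% in control livers. The group ranges overlapped in each of these loci. Lambda averaged 3.99% in AIH, 3.35% in asymptomatic and 6.55% in control livers, and all AIH livers but AIH 3 were below every control.

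AIH livers differed from one another in which segments led. The 10 leading segments of each AIH library together made 36 different segments. Of these 26 were among the first 10 in 1 library, 6 in 2 and 4 in 3, namely Ighv6-6, Igkv12-46, Igkv3-2 and Igkv6-20, and 0 in 4 or 5. The Morisita index, which is near 1 for samples from 1 common distribution and 0 for samples that share nothing, had a median of 0.151 over the 10 pairs of AIH libraries, with a range of 0.0436 to 0.514. Over the 6 pairs of controls the median was 0.685 (0.312 to 0.744), and over the 20 pairs of an AIH and a control library 0.242. The 10 pairs of asymptomatic libraries, most of them with few V counts, had a median of 0.172 (0.0552 to 0.791), close to that of the AIH pairs, and the 25 pairs of an AIH and an asymptomatic library 0.152. The highest AIH pair was AIH 1 with AIH 4, which shared Igkv3-2, Igkv6-20 and Ighv14-4 at high levels. Pairs share libraries, so these values are a description.

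In mice, V segments near the J cluster are favoured in early rearrangements, so position in the locus was examined. Segments not annotated as pseudogenes were put in 4 bins of near-equal number by their distance from the nearest J segment. Kappa members were 22 of 25 segments in the bin nearest to J, 18 of 25 in each of the next 2 bins and 15 of 25 in the farthest. For heavy chain it was 12 of 29, 15 of 29, 17 of 29 and 16 of 28. The heavy bin nearest to J took 4.62% to 21.1% of heavy counts in AIH and 11.4% to 27.1% in control livers. The kappa bin nearest to J took 4.81% to 46.3% of kappa counts in AIH and 16.0% to 23.7% in control livers. AIH and control shares overlapped in these and in all other bins of both loci but 1. The heavy bin 639 to 1183 kb from J, singled out after its values were seen, took 73.4%, 51.8%, 58.6%, 36.8% and 68.1% of heavy counts in AIH 1 to 5. It took 32.1% in asymptomatic 2, 10.5% to 51.7% in the other asymptomatic livers, on few counts, and at most 35.4% in control livers, so the lowest AIH share was above the highest control share. It holds the heavy leaders of all 5 AIH livers, Ighv1-9, Ighv3-6, Ighv6-3, Ighv14-4 and Ighv7-3.

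**Figure D5:**
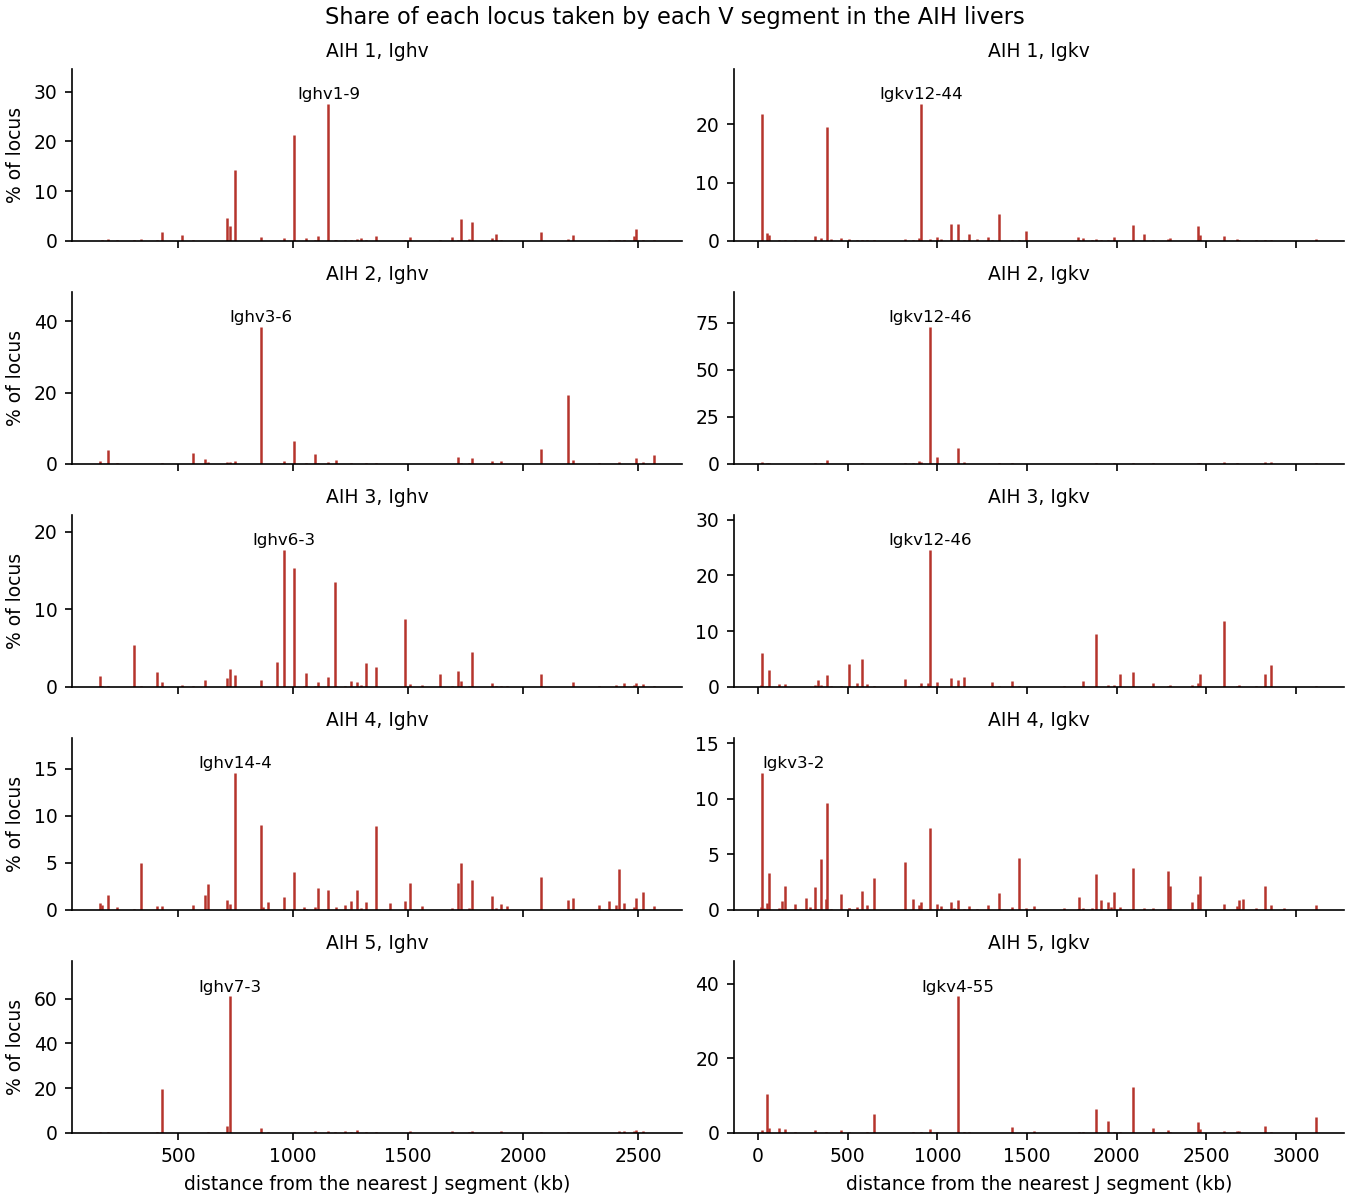
Share of the counts of a locus (%, vertical axis scaled to each panel) taken by each member segment against its distance from the nearest J segment (kb), for the 5 AIH libraries in rows, with Ighv on the left and Igkv on the right and the leading segment named. A few tall lines per panel make up most of the reads, the tallest heavy line stands between 639 and 1183 kb in each row, and AIH 4 shows the most lines.

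No tested segment passed between asymptomatic and control livers. In edgeR 0 of 24 segments were called, beside 0.0% of all tested genes, and 1 had an unadjusted p under 0.05. This was Igkv4-55, with a log2 fold change of 3.04 ± 1.26 and an adjusted p of 0.437 in edgeR. DESeq2 called 118 genes and 0 segments, with 2 segments at an unadjusted p under 0.05. Igkv3-2 had the next lowest p, with a log2 fold change of 4.68 ± 2.27 and an adjusted p of 0.49 in edgeR. In both segments asymptomatic 2 was the highest of the 9 libraries. The fold of mean summed level was 1.73 with that library and 0.448 without it, so the direction between these groups rests on 1 liver.

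Asymptomatic 2 lay within the AIH range in summed V level, but not in beta chain. Its beta chain sum was 0.470 CPM, below the lowest AIH library at 1.22 and within the control range of 0.234 to 0.502. The V sum of asymptomatic 2, 65.6 CPM, was above that of AIH 5 at 38.0 and near that of AIH 2 at 78.1. Igkv3-2 held 46.7% of its kappa counts (43.1% to 50.4%), and Ighv6-3 led its heavy counts at 16.2%. Its Morisita index was 0.513, 0.0922, 0.273, 0.485 and 0.0698 with AIH 1 to 5. It was 0.0552 to 0.173 with the other asymptomatic livers and 0.124 to 0.273 with controls. The B cell markers summed to 27.2 CPM in asymptomatic 2, against 3.29 to 15.7 in the other asymptomatic livers, while its T cell markers were the lowest of that group at 7.70 CPM. Igkv4-81, which fell short of the count of 20, had 19 counts, all of them in asymptomatic 2.

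Receptor constant regions and lymphocyte markers were higher in AIH livers. The lists were chosen with earlier results of these data known. All 14 tested constant region genes were higher in AIH than in control livers in edgeR, and 13 over asymptomatic livers, among them Igkc (5.24 ± 1.17 over control, adjusted p = 0.00545) and Ighg2b (6.15 ± 1.297, adjusted p = 0.00375). Of the B cell markers 9 of 10 tested were higher over control, of the T cell markers 9 of 10 and of the plasma cell markers 5 of 9. Summed B cell markers ran from 33.1 to 254 CPM in AIH, 3.29 to 27.2 in asymptomatic and 5.67 to 10.3 in control livers. Within AIH the B cell sum did not keep the order of the V sum, at 204, 78.9, 35.1, 254 and 33.1 CPM in AIH 1 to 5. Summed T cell markers ran from 26.4 to 101 CPM in AIH, 7.70 to 24.4 in asymptomatic and 10.1 to 23.2 in control livers. Jchain, which links antibodies made by plasma cells, was at 163, 45.9, 173, 476 and 10.7 CPM in AIH 1 to 5, against 3.67 to 8.43 in controls (4.89 ± 1.22, edgeR, adjusted p = 0.0103). Xbp1 and Sdc1 of the plasma cell list, which hepatocytes also express, did not pass over control, and Xbp1 was lower in AIH than in asymptomatic livers (-1.16 ± 0.35, edgeR, adjusted p = 0.0217). The summed list ran from 493.4 to 1073 CPM in AIH, 438 to 1087 in asymptomatic and 384 to 519 in control livers. The defining plasma cell receptor Tnfrsf17 had no count in AIH 1, in 4 asymptomatic and in 3 control livers. The part of these cell types in the V levels was not tested.

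V reads were also set against constant region reads of the same chain. Kappa V counts per Igkc count were 0.276, 0.214, 0.280, 0.380 and 0.422 in AIH 1 to 5, 0.304 to 0.430 in asymptomatic and 0.278 to 0.325 in control livers, with overlapping ranges. Heavy V counts per heavy constant count were 0.0430 to 0.137 in AIH, 0.0493 to 0.0802 in asymptomatic and 0.0375 to 0.106 in control livers. AIH 2 was lowest of the AIH livers in both. Beta V counts per beta constant count were 0.204 to 0.628 in AIH, 0.250 to 1.33 in asymptomatic and 0.222 to 0.800 in control livers, on few counts outside AIH. Heavy chain classes differed among livers. Ighg2b made up 23.9%, 50.8%, 7.12%, 11.4% and 5.43% of heavy constant counts in AIH 1 to 5, against 2.02% to 13.03% in controls, and Ighm, the class that unswitched B cells make, 51.8%, 22.5%, 62.0%, 71.1% and 77.6%, against 30.3% to 82.1%. AIH 2, the liver with the most uneven V reads, had the highest Ighg2b share and the lowest Ighm share of the AIH group.

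Genes of receptor rearrangement were low and unevenly spread. Rag1, part of the enzyme that cuts V and J segments, had 8 counts in AIH 1 and none elsewhere, and its partner Rag2 1 count in the same library. In the class switch and germinal centre list 1 of 5 tested genes was higher in AIH than in control livers, Gcsam (3.89 ± 0.61, edgeR, adjusted p = 0.000456), a germinal centre B cell signalling protein. Dntt, which adds bases at the joint, was the only tested gene of the recombination list and did not pass over control (0.13 ± 0.44, edgeR, adjusted p = 0.873). It was higher in AIH than in asymptomatic livers (1.37 ± 0.43, edgeR, adjusted p = 0.0263).

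No alpha chain segment reached 20 counts. The 128 Trav segments had 62 counts together over the 14 libraries, beside 856 counts of the alpha constant gene Trac, a ratio of 0.0724 (0.0667 in AIH, 0.0455 in asymptomatic and 0.250 in control livers, on 52, 2 and 8 Trav counts), while all annotated Trbv segments had 707 counts beside 1254 of Trbc1 and Trbc2, a ratio of 0.564. Most Trav segments exist in near copies. Of functional Trav segments, the median share of 50-base windows found in no other transcript was 30.03%, against 100% for Trbv members. Whether this accounts for the low Trav counts was not tested.

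The cut at 20 counts left out little. Members held 98.3% of all V counts, and 240 of 511 annotated segments had no count at all. Just inside were Ighv5-9 and Trbv13-1 with 21 counts and Ighv9-4 with 22, and just outside were Ighv3-5 and Igkv4-81 with 19 and Trbv19 with 18. Of the 22 counts of Ighv9-4, 21 were in AIH 4, as were 16 of the 19 of Ighv3-5. Of the 145 members 20 had no count in controls and 86 had 3 or fewer, so for most of them the control level rests on very few reads.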

How the data were processed

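Each of the 14 libraries had 1 deposited file of raw counts, 1 per Ensembl gene. The submitters' processing notes name HISAT2 (2.1.0), HTSeq (0.9.0), cutadapt (1.12), FastQC (0.11.5), R (4.0) and edgeR, and both GRCh38 and GRCm38, without saying what each served for. The mouse IDs were matched to GENCODE symbols on GRCm38 (51719 of 51912 genes). Neither strand setting nor annotation release is given in the sources used here. The 5 HTSeq summary rows stayed out of totals and tests, among them the not uniquely aligned reads, 28.8% to 37.0% of a library.

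The members and gene lists were chosen with earlier results of these data known. Counts were filtered with filterByExpr, scaled by TMM and tested with edgeR 4.0.16 (R 4.3.3, limma 3.58.1) quasi-likelihood F-tests, two-sided, in 1 fit of 14 libraries. Benjamini-Hochberg adjustment ran over 14638 genes with a threshold of 0.05. SE is the log2 fold change divided by the square root of F. The fit was tested on simulated counts with changes placed only in genes of higher counts. That does not cover segments with few counts in most libraries. Alternatives were DESeq2 1.42.0, other scalings and filters, a fit of the compared groups alone, sex as a term and leaving out each library. Nothing says more of the samples than that controls were littermates, so p-values measure the spread between samples.

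Sums, shares, detection and evenness over members are descriptions without tests. Detection at 40 V counts was computed in closed form. Intervals of shares are 95% Clopper-Pearson, and those of ratios are exact conditional ones on pooled counts. 1 count was worth 0.0479 to 0.0665 CPM, and the floor of 3 counts over the control group 0.0422 CPM. Named segments were the highest by summed CPM in each locus (6 Ighv, 6 Igkv, 2 Iglv, 3 Trbv), the leader of Ighv, Igkv and Trbv in each AIH library, the lowest p-values (8 in AIH against control, 4 in each other comparison) and 3 on each side of the count of 20. Other segments were named after their values were seen. Promoter motifs were not searched. Figures were drawn with matplotlib 3.10.9, and exons aligned with Biopython 1.88.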

Additional observations from a re-analysis of the deposited data

Results flagged for a closer look

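In 118 groups of 4 or 5 values the highest or lowest library was examined for a gap to its nearest neighbour that was large against the range of the group (Dixon's criterion). This marked 36 values. The criterion marks about 1 in 20 groups by chance only where values are independent and normally spread. Many values here are skewed and sums share reads with single segments, so that rate does not apply. Most groups with few counts hold several zeros, and there 1 or 2 counts are enough for a mark.

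Asymptomatic 2 gave 15 of the 36. Its summed V level was 65.6 CPM, with 20.3 CPM in Ighv, 43.6 in Igkv and 1.23 in Iglv. Its marked heavy segments were Ighv14-4 at 0.470 CPM, Ighv1-9 at 0.823, Ighv3-6 at 1.65, Ighv1-26 at 0.999 and Ighv6-3 at 3.29. Its marked light chain segments were Igkv3-2 at 20.3 CPM, Igkv12-46 at 1.41, Igkv6-20 at 1.06, Igkv4-55 at 1.117 and Igkv3-5 at 2.17. Trbv12-2 was marked there at 0.0588 CPM, which is 1 count.

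In AIH 3 lambda stood apart, at 11.98% of V counts and 20.7% of light chain V counts, as did Ighv6-3 at 23.9 CPM. In AIH 1 these were Ighv1-9 at 37.7 CPM, Igkv12-44 at 51.1 and Trbv16 at 14.3. In AIH 4 these were Ighv3-6 at 32.4 CPM, Ighv1-26 at 31.7, Igkv10-96 at 25.2, Ighv1-64 at 12.3 and Igkv3-5 at 22.5.

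The remaining asymptomatic marks were single counts, Trbv16 at 0.0650 CPM in asymptomatic 1, Ighv5-17 at 0.0627 in asymptomatic 3 and Ighv6-6 at 0.0665 in asymptomatic 5. Among controls, the leading segment of control 1 held 20.5% of its V counts, and Ighv14-4 was at 0.0584 CPM there. Trbv12-2 was at 0.113 CPM in control 2 and Ighv1-64 at 0.109 in control 3. In control 4 Ighv6-6 was at 0.223 CPM, Trbv16 at 0.112 and Ighv5-17 at 0.112.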

How the results depend on the processing

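The count of segments called in AIH against control (18) became 71 with every gene of 20 or more summed counts tested and 73 with no filter. Of all genes 18.8% and 11.5% were called under these filters. With 1 library left out it ran from 6.0 to 23.0, lowest without AIH 4, beside 15.9% to 23.6% of all genes called. Against asymptomatic (18) the count became 85 and 92 under those filters, beside 26.7% and 16.9% of all genes called. It was 5.0 to 17.0 with 1 library left out, beside 22.7% to 31.9% of all genes. In a fit of only the 2 groups compared it was 7, beside 24.8% of all genes. Against control that fit gave 14, beside 18.8%. Without AIH 1, AIH 3 or AIH 4 only 10 or 11 segments passed the filter, and without 1 control 44 to 46 did. Between asymptomatic and control livers edgeR and DESeq2 called 0 segments under every setting run, which for the fit of the 2 groups alone was fixed, since 0 segments passed the filter there. RLE factors, library totals, DESeq2 and sex as a term gave 16 to 20 in both AIH comparisons. Of all genes they called 17.0% to 25.9% against control and 9.37% to 34.6% against asymptomatic. With sex as a term the share of all tested genes called fell from 29.8% to 9.37% for AIH against asymptomatic. For AIH against control it fell from 21.7% to 17.0%. All asymptomatic libraries were male and AIH 4 was the only male AIH library, so the contrast of these groups within 1 sex rests on 1 liver. The fold of summed level ran from 21.3 to 48.1 for AIH over control, from 12.3 to 87.7 for AIH over asymptomatic and from 0.448 to 2.09 for asymptomatic over control, where leaving out asymptomatic 2 reversed it. In female libraries alone, a setting added after the data were seen, AIH over control was 22.2 for the sum, 1.58 for detection and 0.265 for the effective number.

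Segments detected, AIH over control (1.70), became 4.05 at 3 counts or more, 2.80 for Trbv alone and 0.700 at 40 V counts, and 1.57 to 1.86 with 1 library left out. AIH over asymptomatic (2.22) became 5.0 at 3 counts or more, 0.786 at 40 V counts, and 1.95 to 3.08. Asymptomatic over control (0.767) became 1.2 for Trbv alone, and 0.554 to 0.873. The effective number ratio ran from 0.277 to 0.491 for AIH over control, 0.422 to 1.02 for AIH over asymptomatic (1.09 with the Shannon number) and 0.402 to 0.778 for asymptomatic over control. The mean kappa share of controls (56.3%) was 52.7% over every annotated segment and 58.9% over segments of 50 or more counts. At 50 or more counts the mean beta share was 2.80% in asymptomatic (6.45%) and 1.62% in control livers (4.11%). The higher cut itself leaves out beta segments, among them Trbv3 with 47 summed counts and Trbv29 with 42, of which 13 were in control livers. Why the kappa share moved was not tested. Of all alternatives 254 were counted as the same, 8 moved beyond the spread and 6 reversed. A further 4 gave more calls and 7 fewer by more than a set fold. Call counts within that fold were counted as the same, among them 23 and 14 against control (18). The settings without pseudogenes could not differ, since no member was a pseudogene. The effective number within Trbv alone, given above, was higher on average in AIH than in control livers and was not run through these settings. No paired analysis was possible because replicate numbers follow accession order only. Segments with few counts per library limit all shares in asymptomatic and control livers.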
